A study of Mus musculus with 6 samples.

Results

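Neutrophil chemokines, their receptor, the granulocyte growth factor with its receptor, and both subunits of calprotectin were examined in colorectal tissue of mice with colitis under a pair of drugs. The 9 genes were Cxcl1, Cxcl2, Cxcl3, Cxcl5, Cxcr2, Csf3, Csf3r, S100a8 and S100a9, and they were found by their symbols among the 18268 genes of the expression table. They had been chosen because of their levels in these same mice, so their values under BBR and SASP are given as a description. No p-value is printed for them, and how many passed the threshold of the fit across all genes is counted only beside the share of all genes that did. Male C57BL/6 mice, 8 to 10 weeks old according to the methods of the study, received dextran sulfate sodium (DSS), which damages the colonic epithelium, for 7 days. Of these, 3 received berberine (BBR, a plant alkaloid) and 3 received sulfasalazine (SASP, an aminosalicylate used against colitis), each by gavage for 6 days. BBR was given at a lower dose by weight than SASP, so drug and dose cannot be told apart. All 6 mice had colitis, and neither healthy mice nor DSS mice without a drug were analysed here, so each difference is between the drugs. The labels do not say that each library came from a separate mouse. If they did not, p-values measure a spread that may be technical.

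Levels were in FPKM, which counts fragments per unit of transcript length and of sequencing depth. The tissue carried its epithelial markers, as 12 of 12 were tested and their summed level was 10069 to 12930 FPKM under BBR and 10116 to 10316 FPKM under SASP. An FPKM of at least 1 was reached by 11518 to 12307 genes per mouse. Depth, estimated from genes seen as a single read, was 18200000 to 18600000 reads under BBR and 18900000 to 20100000 reads under SASP. BBR mouse 3 stood apart from its group. Its log2(FPKM + 1) values correlated across genes at 0.953 with BBR mouse 1 and 0.949 with BBR mouse 2, while those of BBR mice 1 and 2 correlated at 0.987. With SASP mice 1, 2 and 3, the values of BBR mouse 3 correlated at 0.92, 0.953 and 0.944. Results are therefore given with and without BBR mouse 3.

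CXCL1, CXCL2, CXCL3 and CXCL5 are CXC chemokines that attract neutrophils through the receptor CXCR2. In the gut they are made by epithelial, stromal and myeloid cells after contact with bacteria or inflammatory cytokines, and nuclear factor kB is a known activator of their genes. Granulocyte colony-stimulating factor, encoded by Csf3, drives the production of neutrophils and acts on the receptor encoded by Csf3r. S100A8 and S100A9 form calprotectin, an abundant protein of the neutrophil cytosol that binds metal ions and is measured in stool as a marker of intestinal inflammation.

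Promoters are shown because 3 of the ligand genes share a sequence immediately before their start. Of the 9 genes, 7 had an entry in the RefSeq promoter table (GRCm38.p6), and Cxcl5 and Csf3 had none. Each sequence below holds the 100 bases before the annotated start, read in the direction of the gene. Capitals mark matches to the kB consensus, the sequence bound by nuclear factor kB.
Cxcl1, chr5:90891145-90891244, plus strand: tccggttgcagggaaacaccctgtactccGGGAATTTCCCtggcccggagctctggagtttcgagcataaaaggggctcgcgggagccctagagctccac
Cxcl2, chr5:90903799-90903898, plus strand: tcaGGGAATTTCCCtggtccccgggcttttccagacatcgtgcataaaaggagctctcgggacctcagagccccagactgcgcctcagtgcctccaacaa
Cxcl3, chr5:90786001-90786100, plus strand: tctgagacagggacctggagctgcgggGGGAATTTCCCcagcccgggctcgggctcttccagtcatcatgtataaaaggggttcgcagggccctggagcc
S100a8, chr3:90668971-90669070, plus strand: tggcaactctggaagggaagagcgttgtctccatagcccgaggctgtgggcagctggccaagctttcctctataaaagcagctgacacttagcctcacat
S100a9, chr3:90695722-90695821, minus strand: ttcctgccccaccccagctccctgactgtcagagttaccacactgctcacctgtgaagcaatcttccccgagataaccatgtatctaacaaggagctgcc
Motifs were searched on both strands from 250 bases before to 50 bases after the start. The kB consensus was present in 4 of the 7 promoters, those of Cxcl1, Cxcl2, Cxcl3 and Csf3r, and in 8.46% of the 32851 promoters in the table. Cxcl1, Cxcl2 and Cxcl3 held 1 and the same form of it, GGGAATTTCC, which was found in 29 promoters (0.0883%) in all. As the exact forms were read from the promoters of these genes, this share is a description. The 3 genes also lie in 1 cluster and need not be independent matches. The first base of GGGAATTTCC lay at -71 in Cxcl1, -97 in Cxcl2 and -73 in Cxcl3. An overlapping match on the other strand, GGGAAATTCC, was shifted by 1 base, so 11 bases are in capitals. Csf3r held another form, GGGACCTTCC, on the opposite strand at -129, outside the 100 bases. The STAT motif TTCCNGGAA was in 0 of the 7 and in 1.15% of all promoters. The C/EBP-type motif TTGCNNAA was in 1 of the 7, S100a9, and in 10.8% of all promoters. A match describes the sequence and does not show that a factor was bound.

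Among the ligands, BBR mouse 3 had the highest level of all 4 genes, and BBR mice 1 and 2 had the lowest levels of Cxcl1, Cxcl2 and Cxcl5. Cxcl5 (Gene ID 20311) was at 0.63, 0.46 and 53.74 FPKM in BBR mice 1 to 3 and at 5.86, 8.81 and 12.19 FPKM in SASP mice 1 to 3. The value of BBR mouse 3 was 6.00 times the SASP mean, whereas BBR mice 1 and 2 lay below every SASP mouse. The BBR mean was 18.3 ± 30.7 FPKM (SD, n = 3) against 8.95 ± 3.17 FPKM under SASP (n = 3), so the spread among BBR mice exceeded the difference. On the scale of log2(FPKM + 1) the difference, BBR minus SASP, was -0.92 ± 1.32 (SE), opposite in sign to the difference of the FPKM means. Without BBR mouse 3 it was -2.64 ± 0.27. These levels corresponded to about 18, 13 and 1494 reads in the BBR mice and 169, 270 and 358 reads in the SASP mice, so that the level of BBR mouse 3 did not rest on a few reads.

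Cxcl1 (Gene ID 14825) had the same order of mice within BBR. It was at 2.11, 0.64 and 25.85 FPKM in BBR mice 1 to 3 and at 4.01, 3.88 and 6.31 FPKM in SASP mice 1 to 3. BBR mouse 3 reached 5.46 times the SASP mean, and BBR mice 1 and 2 were below the SASP range. The mean was 9.53 ± 14.2 FPKM under BBR and 4.73 ± 1.37 FPKM under SASP. The log2 difference was -0.13 ± 0.94, and its sign turned when BBR mouse 1 (0.24), BBR mouse 2 (0.70) or SASP mouse 3 (0.06) was left out. It was -1.32 ± 0.31 without BBR mouse 3.

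Cxcl2 and Cxcl3 were near the limit of detection. Cxcl2 (Gene ID 20310) was listed at 0, 0 and 1.18 FPKM under BBR and at 0.72, 0.26 and 0.98 FPKM under SASP. The nonzero levels corresponded to about 23 reads in BBR mouse 3 and to 14, 6 and 20 reads in the SASP mice. Cxcl3 (Gene ID 330122) was listed at 0, 0 and 0.88 FPKM under BBR and at 0.22, 0.14 and 0 FPKM under SASP, where 0.88 FPKM stood for about 16 reads. For Cxcl3, SASP mouse 3 was at 0 like BBR mice 1 and 2. Both genes missed the filter for testing, which asked for 1 FPKM or more in 3 or more mice, and no fold change was calculated. A listing at 0 allows up to 3 reads, or 0.154 FPKM of Cxcl2 and 0.169 FPKM of Cxcl3 in BBR mouse 1, and these limits cover counting error only.

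**Figure D1:**
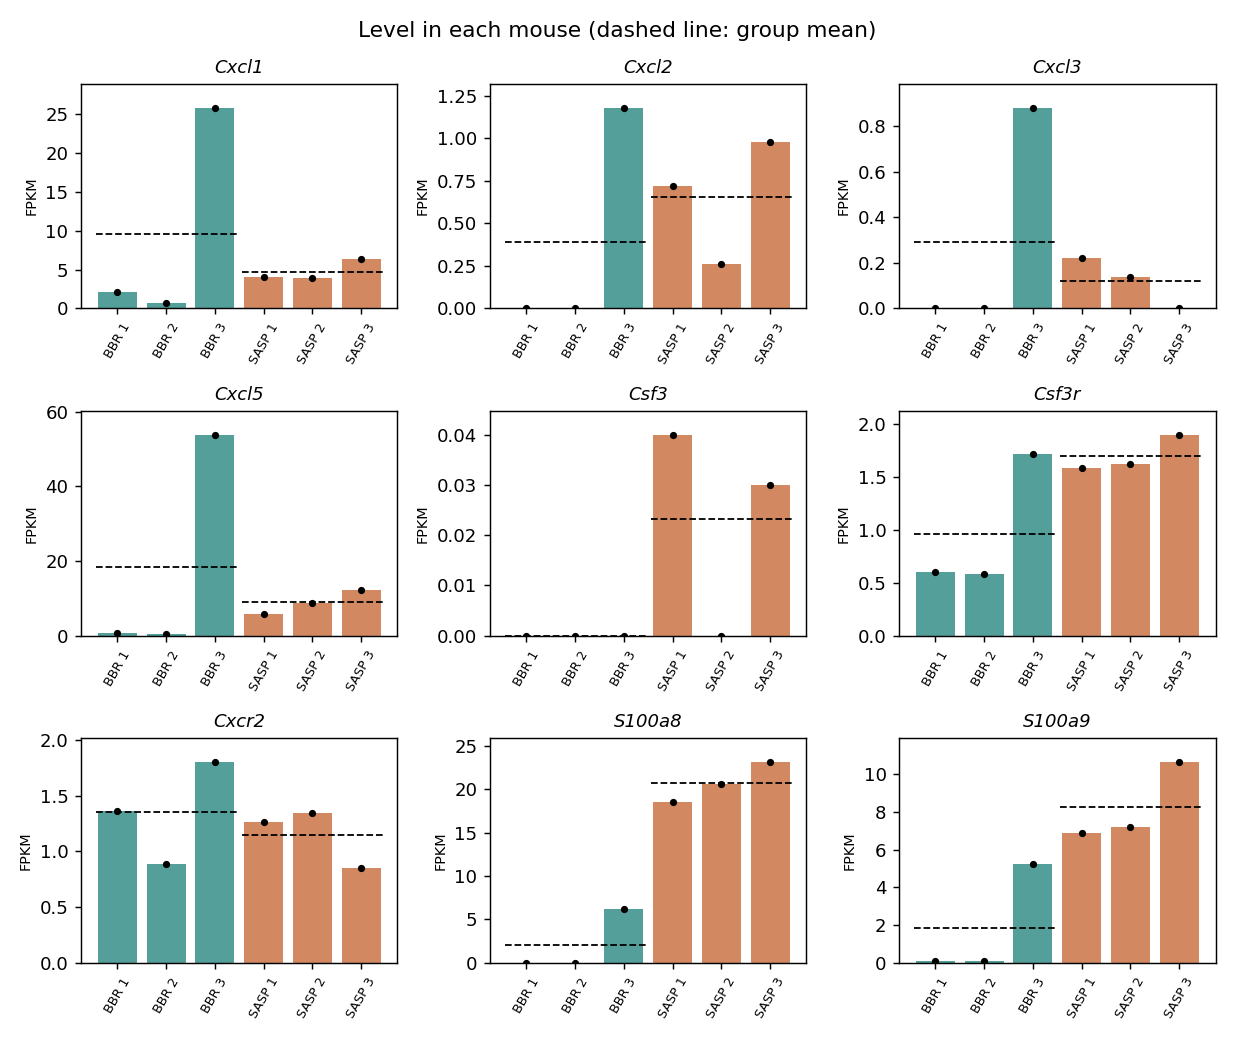
Bars and points give the level (FPKM, each panel with its own axis) of the 9 genes in BBR mice 1 to 3 (green) and SASP mice 1 to 3 (orange), and dashed lines the group means. BBR mouse 3 has the highest bar for all 4 ligands, at 53.74 FPKM for Cxcl5, but lies below the 3 SASP mice for S100a8 and S100a9.

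The receptor gene of these ligands was also highest in BBR mouse 3, but in BBR mice 1 and 2 it was not below every SASP mouse. Cxcr2 (Gene ID 12765) was at 1.36, 0.89 and 1.80 FPKM under BBR and at 1.26, 1.34 and 0.85 FPKM under SASP, so the groups overlapped and all 6 mice lay within a narrow range. The mean was 1.35 ± 0.455 FPKM under BBR and 1.15 ± 0.263 FPKM under SASP. Its log2 difference of 0.12 ± 0.19 was smaller than its error, and without BBR mouse 3 it was -0.02 ± 0.19.

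Csf3, the growth factor gene, was not detectable at this depth. Csf3 (Gene ID 12985) was listed at 0 in the 3 BBR mice and at 0.04, 0 and 0.03 FPKM in the SASP mice. The values above 0 equal about 1 read each, under the limit of 3 reads (0.110 to 0.121 FPKM) in every mouse. Its receptor gene was above that limit throughout. Csf3r (Gene ID 12986) was at 0.60, 0.58 and 1.72 FPKM under BBR and at 1.59, 1.62 and 1.90 FPKM under SASP. BBR mice 1 and 2 were the lowest of the 6 mice, and BBR mouse 3 fell within the SASP range. The mean was 0.967 ± 0.653 FPKM under BBR and 1.70 ± 0.171 FPKM under SASP, with a log2 difference of -0.51 ± 0.23, and of -0.76 ± 0.15 without BBR mouse 3.

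Calprotectin genes were lower in every BBR mouse than in any SASP mouse. S100a8 (Gene ID 20201) was at 0, 0 and 6.19 FPKM in BBR mice 1 to 3 and at 18.53, 20.64 and 23.14 FPKM in SASP mice 1 to 3. The SASP values were close together, and even BBR mouse 3 reached only 0.298 times their mean. The mean was 2.06 ± 3.57 FPKM under BBR and 20.8 ± 2.31 FPKM under SASP, which was 10.1 times higher. S100a8 was seen at about 153, 181 and 195 reads in the SASP mice, at 49 reads in BBR mouse 3 and at 0 reads in BBR mice 1 and 2, where 3 reads would have been 0.374 and 0.369 FPKM. In bulk tissue, fewer cells of a type and less RNA per cell cannot be told apart. The log2 difference was -3.49 ± 0.73. As its size rests on the amount added before the logarithm, it was -5.71 with 0.1 FPKM added and -7.92 with 0.01 FPKM added.

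S100a9 (Gene ID 20202) was at 0.11, 0.11 and 5.25 FPKM under BBR and at 6.91, 7.19 and 10.66 FPKM under SASP. The groups did not overlap, although BBR mouse 3 was nearer to the lowest SASP mouse than to the other BBR mice. The mean was 1.82 ± 2.97 FPKM under BBR and 8.25 ± 2.09 FPKM under SASP, 4.53 times higher. Its log2 difference was -2.21 ± 0.65. In BBR mice 1 and 2 the level equalled about 1 read, so neither calprotectin gene exceeded the limit of 3 reads there. Leaving out BBR mouse 3 gave -4.44 ± 0.13 for S100a8 and -3.04 ± 0.20 for S100a9. The small error for S100a8 in that comparison reflects that both remaining BBR mice were listed at 0.

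**Figure D2:**
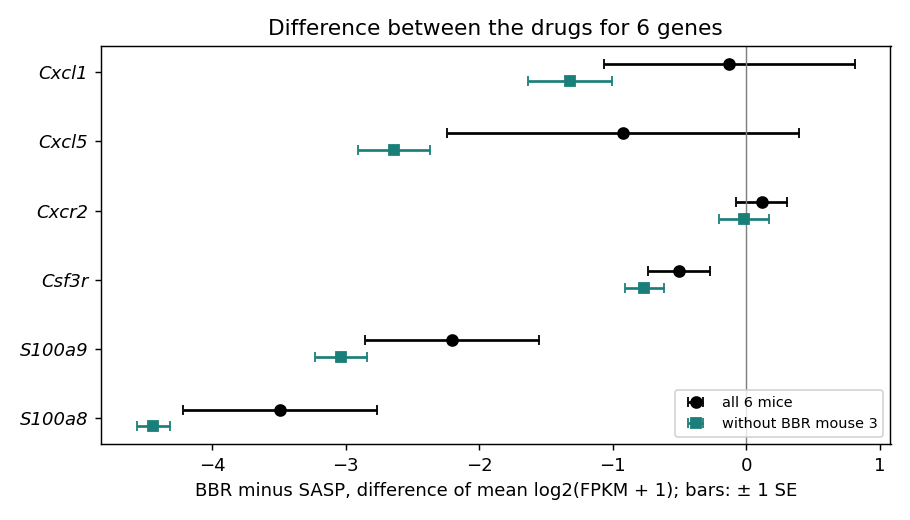
Points give the difference of mean log2(FPKM + 1), BBR minus SASP, for the 6 genes that passed the filter, with bars of 1 SE, for all 6 mice (black) and without BBR mouse 3 (green). Leaving out that mouse moved Cxcl5 from -0.92 to -2.64 and Cxcl1 from -0.13 to -1.32, while Cxcr2 stayed near 0.

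Ligands and calprotectin were not in the same proportion in both groups. The summed level of Cxcl1, Cxcl2, Cxcl3 and Cxcl5 was 2.74, 1.10 and 81.65 FPKM in BBR mice 1 to 3 and 10.81, 13.09 and 19.48 FPKM in SASP mice 1 to 3. The summed level of S100a8 and S100a9 was 0.11, 0.11 and 11.44 FPKM under BBR and 25.44, 27.83 and 33.8 FPKM under SASP. BBR mouse 3 therefore had the most ligand transcript of all mice but less calprotectin transcript than any SASP mouse. Per unit of ligand, calprotectin was 0.0402, 0.1 and 0.140 under BBR and 2.35, 2.13 and 1.74 under SASP. This ratio was below 1 in the 3 BBR mice and above 1 in the 3 SASP mice, and in BBR mouse 3 it was close to that of BBR mouse 2. In BBR mice 1 and 2 the numerator rests on about 1 read.

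**Figure D3:**
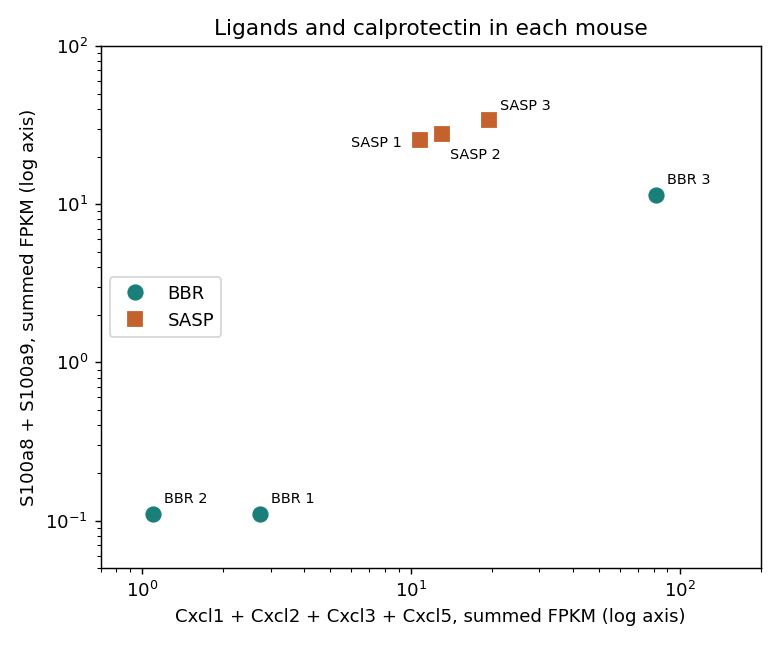
Each point is a mouse, with the summed FPKM of the 4 ligand genes on the horizontal log axis and the summed FPKM of S100a8 and S100a9 on the vertical log axis (BBR circles, SASP squares). BBR mouse 3 lies farthest right at 81.65 FPKM of ligands, below the SASP mice, and BBR mice 1 and 2 lie at 0.11 FPKM of calprotectin genes.

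Of the 9 genes, 6 passed the filter, and S100a8, S100a9, Csf3r and Cxcl5 passed it through the SASP mice and BBR mouse 3, as BBR mice 1 and 2 were under 1 FPKM. In the limma fit across all 12072 tested genes, S100a8 was the 1 gene of the 6 that passed an adjusted p of 0.05, with a lower level under BBR. Over all tested genes, 8.86% were called, 3.82% as higher and 5.04% as lower under BBR. The call of S100a8 was lost when any single mouse other than BBR mouse 3 was left out, with 0.1 or 0.01 FPKM added in place of 1 FPKM, and with no filter. Groups did not overlap for 2 of the 6 genes, S100a8 and S100a9, and for 37.9% of all tested genes. The median log2 difference was -0.71 for the 6 genes, with 1 positive and 5 negative values, and 0.10 over all tested genes. Without BBR mouse 3, 5 of the 6 genes were called lower, all but Cxcr2. Beside this, 11.5% of the 11878 genes tested were called lower and 33.8% in either direction. In that comparison S100a8, S100a9, Csf3r and Cxcl5 passed the filter through the SASP mice alone. They thus had to be lower under BBR to be tested, and their calls add nothing to the values. The median was then -1.98 for the 6 genes and 0.16 over all genes. As the genes were chosen from this contrast, nothing is read from these counts.

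The split among BBR mice was also counted against all genes. BBR mice 1 and 2 were both below the other 4 mice in 5 of the 6 genes and in 9.23% of all tested genes. BBR mouse 3 was the highest of the 6 mice in 3 of the 6 genes (Cxcl1, Cxcl5 and Cxcr2) and in 14% of all tested genes. A level in BBR mouse 3 of at least 4 times the SASP mean was found for 2 of the 6, Cxcl1 and Cxcl5, and for 0.63% of all tested genes, or 76 genes.

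Levels per length also differed between the genes. Under SASP, S100a8 was the highest at 20.8 FPKM, followed by Cxcl5 at 8.95, S100a9 at 8.25, Cxcl1 at 4.73, Csf3r at 1.70, Cxcr2 at 1.15, Cxcl2 at 0.653, Cxcl3 at 0.12 and Csf3 near 0. Cxcl5 and S100a9 overlapped over the SASP mice, as did Cxcl5 and Cxcl1, Cxcr2 and Cxcl2, and Cxcl3 and Csf3. Under BBR the order depended on the mouse. In BBR mouse 3 it was led by Cxcl5 and Cxcl1, and in BBR mice 1 and 2 no member exceeded 2.11 FPKM.

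The 4 ligand genes lie in a cluster on chromosome 5, in the RefSeq order Rassf6, Cxcl5, Ppbp, Pf4, Cxcl3, Cxcl15, Cxcl1, Cxcl2, Mthfd2l. The other genes of this stretch were not highest in BBR mouse 3 to a like extent. Pf4, which encodes the platelet chemokine platelet factor 4, was at 8.16, 6.45 and 6.54 FPKM under BBR and at 3.36, 4.75 and 2.91 FPKM under SASP. It was higher in all 3 BBR mice and rose by 0.80 ± 0.18 on the log2 scale (adjusted p = 0.0434), a call lost when BBR mouse 1, BBR mouse 2, SASP mouse 1 or SASP mouse 3 was left out and without the filter. Ppbp and Cxcl15, further neutrophil-attracting chemokines, were at no more than 0.05 FPKM in any mouse. The flanking gene Mthfd2l ranged from 1.86 to 2.40 FPKM over the 6 mice. Rassf6, on the other side, was at 27.37 to 33.23 FPKM under BBR and 20.89 to 24.93 FPKM under SASP. Rassf6 and Mthfd2l are named for their position.

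Cells that carry calprotectin were looked for with 26 neutrophil marker genes, of which 24 were in the table. Most granule genes of maturing neutrophils were at or near 0, with at most 0.02 FPKM of Mpo, 0.05 of Ngp, 0.06 of Mmp8, 0.11 of Prtn3, 0.37 of Retnlg and 0.47 of Camp in any mouse. Elane and Ctsg were not analysed here. Of the 24 genes, 16 were under 1 FPKM in every mouse and 6 were tested. In all 6, BBR mice 1 and 2 had the lowest levels of the 6 mice, which held for 9.23% of all tested genes. Of the 6, 3 fell under BBR and 0 rose, beside 5.04% of all genes called lower. The median log2 difference was -1.11, beside 0.10 over all genes.

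Fcgr4, an activating IgG receptor of neutrophils and monocytes, was at 0.97, 0.96 and 1.17 FPKM under BBR and at 4.07, 4.52 and 4.71 FPKM under SASP. It fell by 1.42 ± 0.13 on the log2 scale (adjusted p = 0.00355) and remained called with any mouse left out. Unlike the ligands, it was low in BBR mouse 3. Cd177, a neutrophil surface glycoprotein, was at 27.5 ± 10.4 FPKM under BBR and 96.8 ± 16.2 FPKM under SASP (log2 difference -1.83 ± 0.27, adjusted p = 0.0157), a call lost without BBR mouse 1, SASP mouse 1 or SASP mouse 3. Ltf, which encodes the iron-binding granule protein lactoferrin, was at 0.48, 0.20 and 5.13 FPKM under BBR and at 211.63, 21.72 and 85.87 FPKM under SASP. Its difference of -5.08 ± 0.91 (adjusted p = 0.0247) was no longer called without BBR mouse 1, BBR mouse 2, SASP mouse 1 or SASP mouse 3.

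Ly6g, the gene of the surface antigen most used to mark mouse neutrophils, was at 232.14, 189.99 and 552.02 FPKM under BBR and at 328.80, 505.26 and 417.24 FPKM under SASP (log2 difference -0.50, adjusted p = 0.402). In BBR mice 1 and 2, S100a8 was listed at 0 and S100a9 at 0.11 FPKM, but Ly6g kept these levels and Cd177 was at 25.18 and 18.4 FPKM. Ly6g has close paralogs among which reads may have been divided. With Cd177 it makes up most of the summed marker level, which is therefore not read as neutrophil number. That sum was 264, 215 and 608 FPKM in BBR mice 1 to 3. In SASP mice 1 to 3 it was 671, 622 and 621 FPKM, with BBR mouse 3 close below. This separation of BBR mouse 3 rested on Ltf, at 5.13 FPKM in that mouse and at least 21.72 FPKM under SASP. Without Ltf, the sum of BBR mouse 3 would not be below those of the SASP mice, so the groups would overlap. Lcn2, a siderophore-binding protein of neutrophils and inflamed epithelium, was at 2.64, 2.03 and 5.92 FPKM under BBR and at 9.10, 5.44 and 5.30 FPKM under SASP (adjusted p = 0.154). It was singled out after its values were seen. Without BBR mouse 3, 5 of the 6 tested marker genes were called, all lower, beside 11.5% of all genes, with a median of -1.31. Of these, Fcgr4 and Ltf then passed the filter through the SASP mice alone, so they had to be lower to be tested. Without BBR mouse 1, SASP mouse 1 or SASP mouse 3, 1 was called. The part of neutrophil number in the calprotectin difference was not tested.

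Other genes of neutrophil recruitment were taken from a list of 45 adhesion molecules, chemoattractants, cytokines and signalling genes, of which 31 were tested. Of these, 5 passed the threshold, 1 higher and 4 lower under BBR, beside 8.86% of all tested genes. In the same fit 11 had an unadjusted p under 0.05, beside 3837 of all 12072 tested genes, which is a similar share. The median log2 difference was -0.02, with 14 positive and 17 negative values, beside 0.10 over all genes. Without BBR mouse 3, 12 of 30 tested genes were called, 2 higher and 10 lower, beside 33.8% of all genes called and 11.5% called lower, with a median of -0.10. Among those called lower, Cxcl9 and Ltb4r1 then passed the filter through the SASP mice alone. Without any other single mouse, 2 or 3 genes were called.

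Among the called genes were ligands of another chemokine receptor, an adhesion molecule and a cytokine. Cxcl10, which attracts T cells through the receptor CXCR3 and is induced by interferon, was at 1.61 ± 0.465 FPKM under BBR and 32.0 ± 7.74 FPKM under SASP, and fell by 3.65 ± 0.22 on the log2 scale (adjusted p = 0.000723). Cxcl9, another CXCR3 ligand, was at 0.16, 0.04 and 0.06 FPKM under BBR and at 12.96, 4.36 and 9.76 FPKM under SASP (log2 difference -3.10 ± 0.34). It passed the filter through the SASP mice alone, so that it had to differ to be tested, and its call adds nothing to these values. Icam1, the endothelial and epithelial adhesion molecule bound by neutrophil integrins, was at 2.09 ± 0.249 FPKM under BBR and 8.27 ± 1.01 FPKM under SASP (log2 difference -1.58 ± 0.14, adjusted p = 0.00341). These 3 genes were low in BBR mouse 3 as in BBR mice 1 and 2. Cxcl10 and Icam1 stayed called in all 16 alternatives, whereas Cxcl9 was tested in 12 of them, none of which left out a SASP mouse, and was called in these. Tnf, an inflammatory cytokine that activates nuclear factor kB, was at 1.02, 0.82 and 6.33 FPKM under BBR and at 23.02, 14.90 and 33.38 FPKM under SASP. It fell by 2.98 ± 0.56 (adjusted p = 0.0268), and this call was lost without any single mouse but BBR mouse 3 and with no filter. Tnf and Pf4 were the other called genes and are named for that reason, after their values were seen.

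**Figure D4:**
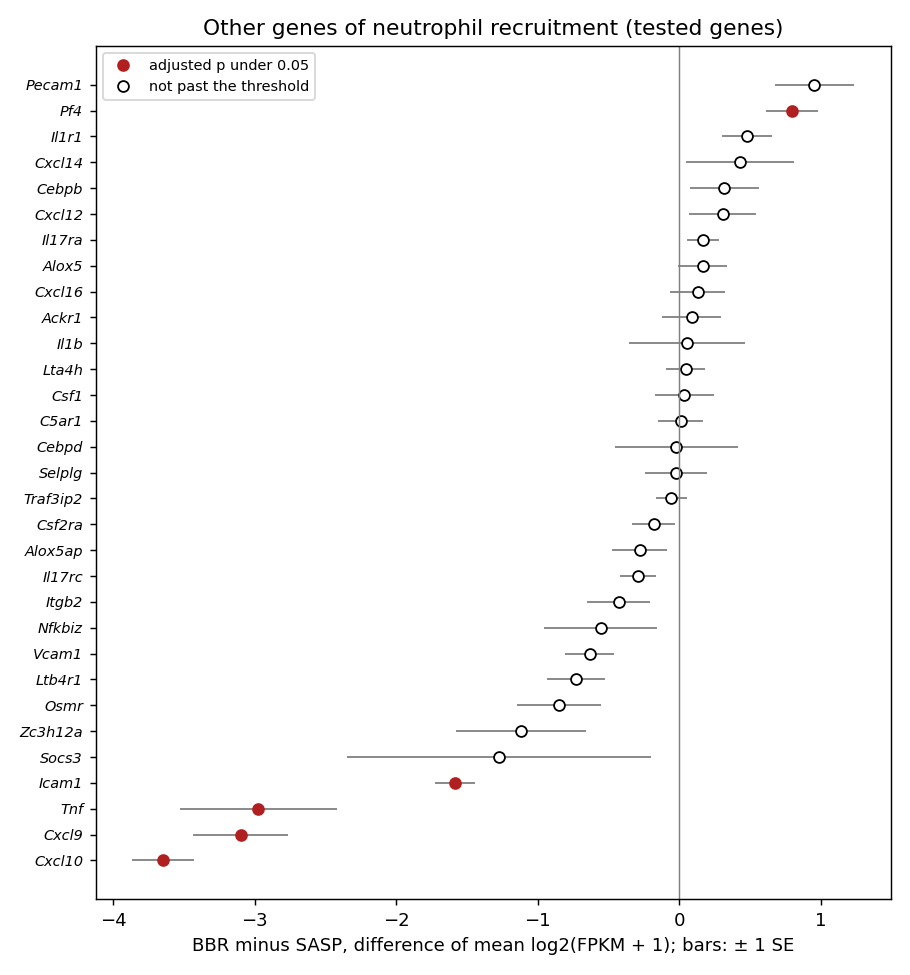
Points give the difference of mean log2(FPKM + 1), BBR minus SASP, of the 31 tested genes of the neutrophil recruitment list, with bars of 1 SE, and filled points mark the 5 genes with an adjusted p under 0.05. Cxcl10 is lowest at -3.65, and Socs3 at -1.27 has the widest bar.

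Genes with a high level in BBR mouse 3 were also present on this list. It was the highest of the 6 mice for 7 of the 31 genes (Ackr1, Cxcl16, Cebpb, Cebpd, Il1b, Nfkbiz and Socs3), beside 14% of all tested genes. Socs3, an inhibitor of cytokine receptor signalling that also restrains the G-CSF receptor, was at 3.52, 3.38 and 79.08 FPKM under BBR and at 20.81, 38.97 and 24.74 FPKM under SASP. As for Cxcl5, BBR mice 1 and 2 were below and BBR mouse 3 above all SASP mice, and the log2 difference of -1.27 ± 1.07 was not called (adjusted p = 0.435). Nfkbiz, a nuclear cofactor of kB-driven genes, was at 25.67, 17.45 and 60.44 FPKM under BBR and at 41.53, 44.47 and 48.60 FPKM under SASP (adjusted p = 0.363). Cebpd, a C/EBP transcription factor of acute inflammation, was at 21.49, 17.29 and 58.69 FPKM under BBR and at 21.87, 29.94 and 35.18 FPKM under SASP (adjusted p = 0.979). Il1b was low, at 0.33, 0.89 and 3.23 FPKM under BBR and 0.70, 1.36 and 1.36 FPKM under SASP. When BBR mouse 3 was left out, Socs3 (-2.66, adjusted p = 0.00201) and Nfkbiz (-1.05, adjusted p = 0.00803) were called lower. Zc3h12a, an endonuclease that degrades inflammatory transcripts, had 11.37, 11.09 and 40.42 FPKM under BBR and 37.19, 34.92 and 45.40 FPKM under SASP, and was called lower without that mouse (-1.71, adjusted p = 0.00124). These genes were picked after their values were seen. The cytokines Il17a, Il6 and Csf2 and the endothelial selectin Sele were at no more than 0.28 FPKM in any mouse, and 12 of the 45 genes were under 1 FPKM in all mice.

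Other S100 genes and the receptors of calprotectin formed a list of 16 genes, of which 12 were tested. Cd14, the lipopolysaccharide co-receptor that acts with TLR4, was the 1 gene called, at 24.8 ± 6.48 FPKM under BBR and 92.0 ± 21.4 FPKM under SASP (log2 difference -1.85 ± 0.22, adjusted p = 0.00891), and the call was lost without SASP mouse 3. The list had a median of -0.09 beside 0.10 over all genes. Its 1 call in 12 stands beside 8.86% of all tested genes called. An unadjusted p under 0.05 was reached by 2 of its genes, beside 3837 of all 12072 tested genes. S100a6, which lies near S100a8 and S100a9 in the S100 cluster of chromosome 3, was at 913.77, 1021.28 and 1429.04 FPKM under BBR and at 757.29, 737.48 and 751.77 FPKM under SASP (log2 difference 0.56 ± 0.19, adjusted p = 0.103). It was thus higher in each BBR mouse, opposite to the calprotectin genes, but did not pass the threshold. S100a16 had a log2 difference of -0.70 (adjusted p = 0.167). Tlr4, a receptor of calprotectin, was at 6.28, 6.41 and 15.88 FPKM under BBR and at 16.33, 12.98 and 15.70 FPKM under SASP (adjusted p = 0.179), and is named for this role. Without BBR mouse 3, 6 of the 12 genes were called, 1 higher and 5 lower, beside 33.8% of all genes. In that comparison S100a6 (0.37, adjusted p = 0.0345) was called higher, and S100a16 (-1.03, adjusted p = 0.0117) and Tlr4 (-1.12, adjusted p = 0.00289) lower. S100a6 was also called with quantile normalization and with array quality weights.

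Markers of other cell types also varied between the mice. Their counts stand beside 8.86% of all 12072 tested genes called, 3.82% as higher and 5.04% as lower under BBR. Over all tested genes, 3837 had an unadjusted p under 0.05. Of 12 monocyte and macrophage markers, 1 was called, Ccr2, the receptor of inflammatory monocytes, at 0.923 ± 0.166 FPKM under BBR and 2.19 ± 0.419 FPKM under SASP (log2 difference -0.73, adjusted p = 0.0390). This call was lost with no filter and without any single mouse other than BBR mouse 3. Without BBR mouse 3, Ccr2 passed the filter through the SASP mice alone, so it had to be lower to be tested. Their median was -0.09, and their summed level was 117 to 194 FPKM under BBR and 183 to 201 FPKM under SASP. Of 8 leukocyte markers, 7 were tested and 0 were called by limma, 4 had an unadjusted p under 0.05, and the median was -0.63. Their summed level was 19.3 to 30.8 FPKM under BBR and 29.2 to 64.3 FPKM under SASP, and it was lowest in BBR mouse 3, where the ligands were highest. Epithelial markers had 2 genes called higher, Krt18 (log2 difference 0.75, adjusted p = 0.0163) and Cdx2 (17.9 ± 5.58 against 5.85 ± 2.88 FPKM, adjusted p = 0.0422), and 1 called lower, Vil1 (log2 difference -0.55, adjusted p = 0.0328), with a median of 0.06. Krt18 was no longer called without BBR mouse 1, SASP mouse 1 or SASP mouse 3, Cdx2 without these or BBR mouse 2 or with no filter, and Vil1 without any mouse but BBR mouse 3 or with no filter. Of 9 stromal markers, 4 were called higher under BBR, Thy1, Col3a1, Lum and Col1a1, with a median of 0.81 and a summed level of 313 to 424 FPKM under BBR and 152 to 248 FPKM under SASP. All 4 calls were lost with no filter and without BBR mouse 1, BBR mouse 2, SASP mouse 1 or SASP mouse 3, that of Thy1 also without SASP mouse 2 and with quantile normalization, those of Col1a1 and Lum with 0.01 FPKM added, and that of Col1a1 with 0.1 FPKM added and with no variance trend.

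Smooth muscle markers were high in BBR mouse 3, and so was Sprr1a among the tested squamous markers. The 10 smooth muscle markers summed to 2905, 3063 and 6833 FPKM in BBR mice 1 to 3. In SASP mice 1 to 3 they summed to 763, 2334 and 1739 FPKM. BBR mouse 3 was the highest mouse for 9 of the 10, beside 14% of all tested genes. None was called by limma (0 of 10), beside 8.86% of all tested genes, and the median log2 difference was 1.27. An unadjusted p under 0.05 was reached by 8, beside 3837 of all 12072 tested genes. Of 12 squamous epithelial markers, 9 were in the table, 2 were tested and 0 were called by limma, with 0 at an unadjusted p under 0.05 and a median of -0.14. The squamous list summed to 3.85, 5.21 and 33.67 FPKM under BBR and to 12.06, 11.17 and 9.86 FPKM under SASP. Sprr1a made up 29.58 of the 33.67 FPKM in BBR mouse 3, and the other tested gene, Krt10, was at 1.88, 1.96 and 1.76 FPKM under BBR and 1.16, 1.45 and 1.55 FPKM under SASP. Sprr1a, a cornified envelope protein also found in injured epithelium, was at 1.29, 2.77 and 29.58 FPKM under BBR and 9.72, 8.85 and 6.89 FPKM under SASP. The defining basal markers were low in every mouse, with at most 0.25 FPKM of Krt5, 1.73 of Krt14 and 0.06 of Trp63. The maxima of Krt5 and Krt14 were in BBR mouse 3. Krt14 was at 0.47, 0.17 and 1.73 FPKM under BBR and 0.12, 0.48 and 0.34 FPKM under SASP. Krt13 went the other way, at 0.26 FPKM in BBR mouse 3 and up to 1.01 FPKM under SASP. The part of tissue composition in the ligand levels of BBR mouse 3 was not tested.

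The genes whose levels most resembled those of Cxcl5 and S100a8 were sought among 6040 genes with a mean of at least 10 FPKM, by Pearson's r of log2(FPKM + 1) over the 6 mice, as a description with no p-value. For Cxcl5 these were Plscr1 (r = 0.994), Dynll1 (0.992), Ankrd50 (0.991), Ccdc71l (0.990) and Pyroxd1 (0.987), with Spearman's rho of 0.886 to 0.943. Plscr1, a phospholipid scramblase induced by interferon, was at 111.59, 102.81 and 281.44 FPKM under BBR and at 168.72, 185.37 and 182.47 FPKM under SASP. Without BBR mice 3 and 2, the mice farthest from the median of Cxcl5, r was 0.954 to 0.983 for these 5 genes, over the other 4 mice. This is no separate check, as the genes were picked by r over all 6 mice. Among the 4, BBR mouse 1 alone had a low level of Cxcl5. For S100a8 the most similar genes were Psmd7 (r = 0.995), Cds1 (0.995), Nsmce1 (0.994), Lratd2 (0.991) and Aars (0.991). Spearman's rho was 0.812 for Psmd7 and 0.928 to 0.986 for the others, with S100a8 tied at 0 in BBR mice 1 and 2. Without these mice, r was 0.925 to 0.998 over the other 4, which is again no separate check. Psmd7, a subunit of the proteasome, was at 41.91, 42.55 and 53.36 FPKM under BBR and at 64.26, 62.44 and 63.24 FPKM under SASP, so that BBR mouse 3 lay between the other BBR mice and the SASP mice, as for S100a8. None of these 10 genes passed the threshold, with adjusted p of 0.0562 to 0.728. The 6 points share their libraries, and their number limits what such a likeness shows.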

How the data were processed

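Transcripts were sequenced from colorectal tissue of 6 mice, 3 per drug, which were grouped by the treatment label. According to the study's methods, ribosomal RNA was depleted and single-end reads were sequenced on a BGISEQ instrument, whereas the labels name an Illumina kit. The authors aligned reads with Bowtie2 2.2.5 and calculated FPKM with RSEM 1.2.12, per the labels, and deposited FPKM with 2 decimals. The processing notes name mm9, but the annotation is not given in the sources used here, so coordinates are from RefSeq (GRCm38.p6). RSEM divides reads shared by paralogs among them, which leaves such genes uncertain. FPKM are not counts, so limma 3.58.1 (R 4.3.3) was fitted to log2(FPKM + 1) with a variance trend, two-sided, with Benjamini-Hochberg adjustment over 12072 genes that reached 1 FPKM in 3 or more mice. The threshold was 0.05. The fit was also run on simulated data with independent noise for each gene. These held no shift shared by the genes of a mouse, so they do not show how the fit behaves with a mouse like BBR mouse 3. Read numbers were estimated from genes with 1 presumed read. Members and gene lists were chosen with earlier results of these data known. Named were all members, up to 3 genes per list with the smallest p-values, markers needed to judge neutrophils, and the 5 genes most like Cxcl5 and S100a8. The alternatives changed the pseudocount, filter, scaling, variance model, weights, threshold and the mice included.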

Additional observations from a re-analysis of the deposited data

How the results depend on the processing

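With 3 mice per group, leaving out 1 animal could end or make a call. All 12072 tested genes gave 1069 calls, and these became 608 with no filter, 1737 with quantile normalization, 1684 with median-ratio scaling, 7126 with array quality weights, 3837 with an unadjusted p of at most 0.05, and 51 (without SASP mouse 3) to 4018 (without BBR mouse 3) with any 1 of the 6 mice left out, each of which moved the count by over 1.5 times. Calls higher under BBR were 43.1% of the total, and 29.6% with median-ratio scaling, which moved the median of all genes from 0.10 to -0.02, 65.1% with array quality weights and 58% with the unadjusted p. Of the 6 tested members, 1 was called. This became 0 with 0.1 FPKM added, 0 with 0.01 FPKM added and 0 with no filter (2 each at an unadjusted p under 0.05), 5 with array quality weights, 2 with the unadjusted p and 0 to 5 with a mouse left out. Their median of -0.71 became -1.95 with array quality weights and -1.98 to -0.20 with a mouse left out. The 3 called neutrophil markers became 6 with array quality weights, 5 with the unadjusted p and 1 to 5 with a mouse left out, and the median of that list was -0.14 with no filter. The 5 called recruitment genes became 3 with no filter, 18 with array quality weights, 11 with the unadjusted p and 2 to 12 with a mouse left out. An alternative chosen after seeing the data, without BBR mouse 3 and with 0.1 FPKM added, gave 3968 calls, 5 called members with a median of -2.82, 5 markers and 12 recruitment genes. Whenever BBR mouse 3 was left out, S100a8, S100a9, Csf3r and Cxcl5 passed the filter through the SASP mice alone. The same held for the neutrophil markers Fcgr4 and Ltf, the monocyte marker Ccr2 and the recruitment genes Cxcl9 and Ltb4r1. Cxcl1 and Cxcr2 changed sign with a mouse left out, and so did Dynll1 (-0.36 to 0.004), Pyroxd1 (-0.26 to 0.015) and Sprr1a (-1.68 to 0.19). For the named genes other than the members, leaving out a mouse kept direction and call in 184 cases, ended a call in 51, made a call in 17 and turned the sign in 3. The other settings kept both in 352 cases, ended a call in 14 and made a call in 58. These other settings include the unadjusted p and the fit without BBR mouse 3 and with 0.1 FPKM added. The cause was not tested. No paired analysis was possible because the labels give mice no shared numbers across groups.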

Other observations

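Proportions between members also differed among the mice. The level of Cxcl5 divided by that of Cxcl1 was 0.299, 0.719 and 2.08 in BBR mice 1 to 3 and 1.46, 2.27 and 1.93 in SASP mice 1 to 3, so BBR mouse 3 lay within the SASP range. The level of S100a8 divided by that of S100a9 was 1.18 in BBR mouse 3 and 2.68, 2.87 and 2.17 in the SASP mice, and could not be formed in BBR mice 1 and 2, where S100a8 was listed at 0. These ratios were not tested.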
